A study of Mus musculus with 52 samples.

Results

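The regions described here are stretches of chromatin that were accessible in the endothelial cells (ECs) of the WT mouse cerebellum and in neither lobe of the WT pituitary. A region was counted when peaks of both WT cerebellum ATAC-seq libraries overlapped in it by at least 1 bp and none of the 4 WT pituitary libraries had a peak there. Peaks counted here exceeded 2 both in fold enrichment and in -log10 q, and the mitochondrial chromosome was left out. Under this rule 2202 regions were found, out of 20331 regions with overlapping peaks in both WT cerebellum libraries and 46245 regions in the 12 libraries of the series. For comparison, 14275 regions had a peak in all 6 WT libraries, 10096 had peaks in both WT anterior pituitary libraries alone, 1257 in the WT libraries of both pituitary lobes but not in the cerebellum, and 108 in both WT posterior pituitary libraries alone. The WT libraries chose the members, so values from those 6 libraries are given as a description and were not tested.

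ECs were sorted by GFP from adult male Tie2-GFP mice, in which Tie2 regulatory sequences drive GFP in the endothelium. The WT mice sorted this way had no other transgene. The beta-catenin stabilized mice were Ctnnb1flex3/+;Pdgfb-CreER;Tie2-GFP and were given 100 µg of 4-hydroxytamoxifen at postnatal day 10, so that Cre recombinase in ECs removed the exon of the beta-catenin gene that holds the degradation signal. Stabilized and WT mice of the sorted groups therefore differed in the Cre transgene and in the drug as well as in the allele. Each pituitary replicate held the pooled glands of 20 to 30 mice aged P30 to P90. There were 2 ATAC-seq and 2 RNA-seq libraries for each of cerebellum, anterior pituitary (AP) and posterior pituitary (PP) in each genotype. RiboTag libraries hold RNA bound to tagged endothelial ribosomes of the cortex or choroid plexus, again with 2 per group. They came from adult male mice aged 6 to 8 weeks without Tie2-GFP, in which Cre switches on the tag. WT here means Rpl22ribotag/+;Pdgfb-CreER and stabilized the same with Ctnnb1flex3/+, so both groups carried the Cre transgene and received 4-hydroxytamoxifen and differed in the Ctnnb1 allele. Each choroid plexus sample pooled 3 to 4 animals.

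Canonical Wnt signaling prevents the breakdown of beta-catenin, which enters the nucleus and binds TCF/LEF factors at enhancers and promoters. In brain capillaries this pathway maintains the blood-brain barrier (BBB): tight junctions seal the cells to each other and a set of transporters carries nutrients across them. The capillaries of the pituitary lobes are fenestrated, which lets hormones pass into the blood, and their ECs have little Wnt signaling. ATAC-seq reports where the transposase Tn5 can cut DNA, and the summit of a peak often lies at bound regulatory proteins.

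Libraries differed in how much they detected. The kept peaks numbered 26394 and 24020 in WT cerebellum, 36860 and 45040 in WT AP, 21050 and 20634 in WT PP, 33514 and 31669 in stabilized cerebellum, 40071 and 42621 in stabilized AP, and 28926 and 38583 in stabilized PP. RNA-seq totals lay between 17260078 and 33458597 estimated reads in the 12 GFP-positive libraries and between 6409013 and 21399125 in the 8 bound RiboTag libraries. A stabilized AP library (replicate 2, GFP-positive RNA) was named anterior by its title and source and posterior by its tissue tag, and it was taken as anterior. Levels of RNA are given below as CPM, counts scaled to library size with TMM, in the order replicate 1 and replicate 2. In the 12 GFP-positive libraries the 10 endothelial markers summed to between 5213 and 13588 CPM, against 38.6 and 98.1 in WT cerebellum GFP-negative cells.

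Most regions of the set lay far from promoters. Of the 2202 regions, 2090 (94.9%, Wilson 95% interval 93.9 to 95.8) lay over 1 kb from every annotated start of a protein-coding transcript. Starts of other transcripts were not used, here or below. The share was 31.6% in the regions shared by all 6 WT libraries and 90.02% in the regions of AP alone. Introns held 1124 regions (51.0%), intergenic sequence 843 (38.3%), promoters 112 (5.09%), coding exons 36 (1.64%) and other exons 87 (3.95%). The median distance to the closest start was 26618 bases, with quartiles of 8900 and 66182, and 713 regions (32.4%) were over 50 kb away. The median region was 515 bases wide, beside 500 bases in AP alone and 693 in the regions shared by all 6 WT libraries. The bases around the summit had a median GC content of 49.8%, beside 51.7% in AP alone and 64.2% in the shared regions, and CpG made up a median of 1% of their dinucleotides, beside 1.5% and 8%. In these features the set was close to AP alone. These intervals cover counting error only, and regions next to each other are not independent.

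Some of the regions lay in runs. Another region of the set lay within 50 kb for 915 of them (41.55%), which formed 365 runs, 45 of them with 4 or more regions. The longest run had 13 regions at chr4:118979029-119141618 (GRCm38), over Slc2a1, which encodes the glucose transporter of the barrier, and its neighbors Lao1 and Zfp691. A run of 12 regions at chr2:132595269-132721670 lay by Shld1 and Gpcpd1, which encodes a glycerophosphocholine phosphodiesterase. Only 5 regions of the set lay within 100 kb of Gpcpd1. Runs of 7 lay at Slco1a4, an organic anion transporter (chr6:141826107-141889537), at Nkd1, a feedback inhibitor of Wnt signaling (chr8:88454056-88581141), and by Cdkn2b and Dmrta1 (chr4:89421750-89505884). Runs of 6 lay at Gtf2h2 and Ocln, which encodes the tight junction protein occludin (chr13:100495306-100578261), at Fry (chr5:150316024-150390759) and at Ptn, which encodes the growth factor pleiotrophin (chr6:36778017-36842811). A run of 5 lay at Axin2, a component of the complex that degrades beta-catenin and a widely used Wnt target (chr11:108889025-108981012). Other runs of 4 or 5 lay by genes such as Irf4, Zfp366 and Klf4, and whether runs favor a kind of gene was not tested. Every chromosome with members contributed between 3.42% and 5.86% of its regions to the set.

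From the regions with a TCF/LEF match by the summit, 8 are printed to show these matches in their sequence. Each spans 50 bases to either side of the summit on the plus strand of GRCm38, with the match in capitals (ATCAAAG or TTCAAAG, or the reverse complement of either). The regions lie, in order, in an intron near Phyhipl and Fam13c (chr10:70547413-70547513), 88.0 kb upstream of Jag1 (chr2:137204572-137204672), 26.0 kb upstream of Nkd1 (chr8:88495282-88495382), in an intron near Cenpx and Notum (chr11:120707260-120707360), 8.0 kb upstream of Gpcpd1 (chr2:132595708-132595808), in an intron 180.2 kb from the start of Gm10260 (chr13:97580361-97580461), 33.0 kb upstream of Slco1a4 (chr6:141889158-141889258) and in an intron 8.8 kb from the closest start of Elk3 (chr10:93293771-93293871).
Fam13c region: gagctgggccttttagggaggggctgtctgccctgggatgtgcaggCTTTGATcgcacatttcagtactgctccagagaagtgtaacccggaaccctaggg
Jag1 region: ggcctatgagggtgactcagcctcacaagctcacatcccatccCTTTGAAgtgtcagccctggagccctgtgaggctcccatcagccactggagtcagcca
Nkd1 region: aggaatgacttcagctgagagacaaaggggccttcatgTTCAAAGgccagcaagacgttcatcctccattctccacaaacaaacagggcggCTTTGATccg
Notum region: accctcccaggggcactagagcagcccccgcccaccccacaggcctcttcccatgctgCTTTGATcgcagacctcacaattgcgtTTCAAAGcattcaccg
Gpcpd1 region: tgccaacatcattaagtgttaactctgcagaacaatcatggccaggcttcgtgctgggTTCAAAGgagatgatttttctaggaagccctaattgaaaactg
Gm10260 region: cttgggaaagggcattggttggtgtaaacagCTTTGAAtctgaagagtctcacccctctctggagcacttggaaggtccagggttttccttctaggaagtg
Slco1a4 region: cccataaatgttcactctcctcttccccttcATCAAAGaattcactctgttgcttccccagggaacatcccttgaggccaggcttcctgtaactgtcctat
Elk3 region: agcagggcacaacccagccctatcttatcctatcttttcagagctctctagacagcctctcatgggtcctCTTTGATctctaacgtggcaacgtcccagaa

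The Nkd1 and Notum sequences hold a match on each strand. The Jag1, Nkd1, Notum, Gpcpd1 and Gm10260 regions had peaks in every stabilized pituitary library, and their fold enrichments in stabilized AP were 17.9 and 15.3 at Jag1, 4.88 and 5.98 at Nkd1, 4.38 and 4.16 at Notum, 10.8 and 9.59 at Gpcpd1, and 11.9 and 13.6 at Gm10260. The Slco1a4 region had a peak in both stabilized PP libraries (4.56 and 2.87) and in stabilized AP replicate 2 alone (4.68). The Fam13c and Elk3 regions had none in stabilized AP, and gave 6.95 and 6.40 at Fam13c and 2.98 and 2.39 at Elk3 in stabilized PP.

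Matches to the TCF/LEF letters were several times as frequent in the set as in the comparison sets. Within 100 bases of the summit, 28.3% of the 2090 regions over 1 kb from a start held ATCAAAG or TTCAAAG on either strand (26.4 to 30.3). The share was 5.61% in the regions shared by all 6 WT libraries, 5.24% in AP alone, 3.64% in both pituitary lobes and 10.3% in all regions of the series at that distance. Among all 2202 members 614 (27.9%) had a match, ATCAAAG in 300 (13.6%, against 3.68% of all regions) and TTCAAAG in 361 (16.4%, against 4.76%). A single match was found in 503 of the distal members and more than 1 in 89. The excess was present at each base composition, and its size depended on the comparison set. Below 40% GC the share was 37.9% in the set and 3.95% (3 of 76) in the regions of all 6 WT libraries. It was 13.9% in AP alone and 23.7% in all regions. At 60% GC and above the shares of these sets were 16.5%, 1.89%, 1.41% and 2.80%. Matches were spread evenly over the central part of the window, at 1.85 per 100 regions and 10 bases within 20 bases of the summit and 1.46 at 61 to 97 bases, compared with 0.216 to 0.332 in the regions of all 6 WT libraries.

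Of the other 12 motif families, some were more and some less frequent in the set. SOX letters (ACAATGG or ACAATAG) were found in 13.3% of distal members, 7.96% of the regions of all 6 WT libraries, 5.70% of AP alone and 7.82% of all regions. FOX letters (TGTTTAC) were found in 6.27%, 3.37%, 3.92% and 4.46%, and ZIC letters (CCTGCTG) in 16.6%, 11.4%, 12.3% and 12.6% of the same sets. SOX17, FOXF2 and FOXQ1 are factors of the first 2 families with known roles in brain ECs. ETS letters (CCGGAAG or CAGGAAG), which ERG, FLI1 and ETS1 recognize in ECs of all vessels, were less frequent in the set at 24.3% than in the 4 comparison sets, where they ranged from 29.0% to 35.4%. AP-1 letters (TGACTCA) were less frequent as well, in 5.69% of distal members, 9.17% of AP alone, 11.6% of all distal regions and 24.9% of the regions of both pituitary lobes. The core of the CTCF motif was rare in the set, in 0.383% of distal members (0.194 to 0.754), 1.84% of the regions of all 6 WT libraries, 2.21% of all distal regions and 3.04% of AP alone. KLF letters (CCACACCC) were found in 5.79% of distal members and 3.08% of all distal regions, GATA letters (AGATAAG) in 4.115% and 2.88%, RUNX letters (TGTGGTT) in 4.785% and 4.17%, and TEAD letters (ACATTCC) in 4.31% and 4.04%. NFI letters (TTGGCA) were found in 16.1% and 15.5%, and nuclear receptor letters (AGGTCA) in 16.75% and 17.55%. A match describes the letters and does not show that a factor is bound.

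**Figure D1:**
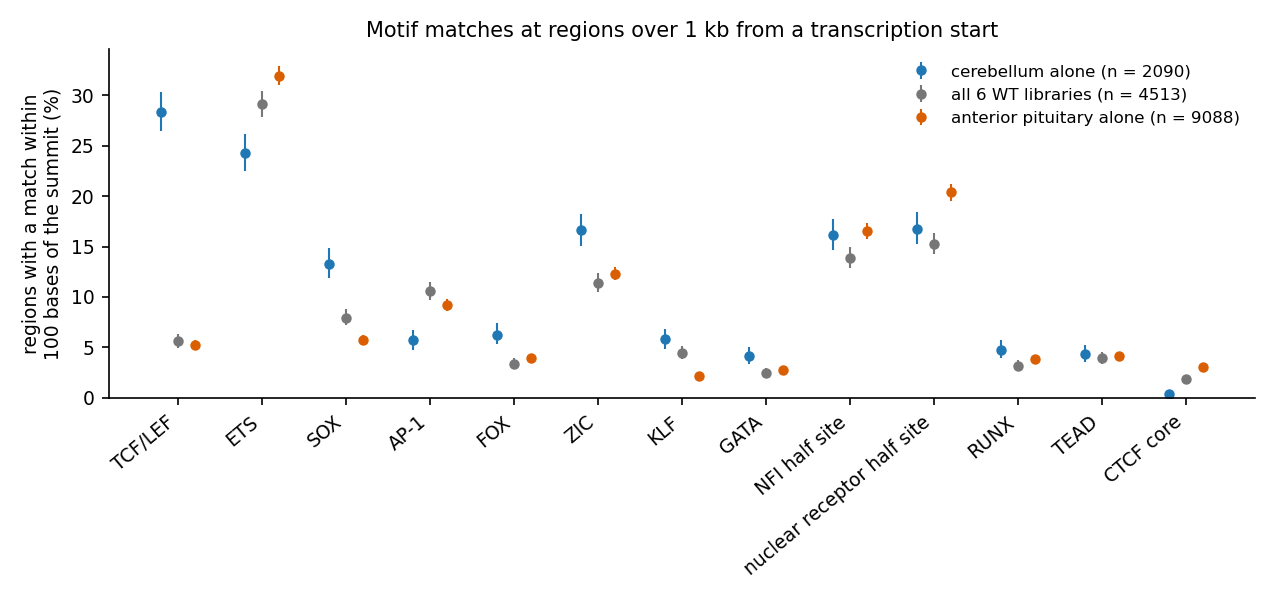
Share of regions over 1 kb from a transcription start with a match to each of 13 motif families within 100 bases of the summit, in percent, for the cerebellum-alone regions (2090), the regions shared by all 6 WT libraries (4513) and the regions of AP alone (9088). Points are shares and bars Wilson 95% intervals; TCF/LEF stands at 28.3% in the cerebellum-alone set and at 5.61% and 5.24% in the others.

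The stabilized libraries were not used to choose the regions. In the stabilized cerebellum 92.01% and 90.9% of the regions had a peak (2026 and 2001 regions), and 1974 (89.65%, 88.3 to 90.9) had one in both libraries. In stabilized AP 29.4% and 27.8% had a peak (648 and 613), 532 (24.2%, 22.4 to 26.0) of them in both. In stabilized PP the shares were 37.9% and 44.6% (834 and 982), with 721 (32.7%, 30.8 to 34.7) in both. These shares depend on how the set is chosen: without WT cerebellum replicate 2 in the rule they were 15.3% in AP and 19.5% in PP, and with equal numbers of peaks in every library 8.63% and 19.96%. A region with a peak in both stabilized libraries of a tissue is called open there. The most frequent fate was a peak in both stabilized cerebellum libraries and in neither pituitary lobe to the same standard, in 1181 regions (53.6%). All 3 tissues had a peak in both libraries at 431 regions (19.6%), cerebellum and PP at 271 (12.3%) and cerebellum and AP at 91 (4.13%). No stabilized library had a peak at 119 regions (5.40%).

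Peaks in stabilized pituitary cannot be set against the WT pituitary libraries directly, because the rule required those to have none. Each WT library was therefore left out of the rule in turn, the regions were chosen from the other 5, and the left-out library was read beside the stabilized libraries of its tissue. Among the 2368 regions found without WT AP replicate 1, that library had a peak at 7.01% and the stabilized AP libraries at 31.6% and 30.2%. Among the 2600 found without WT AP replicate 2, the shares were 15.3% in that library and 36.0% and 34.8% in stabilized AP. For PP the left-out libraries had a peak at 2.996% of 2270 regions and 2.09% of 2249, while the stabilized PP libraries reached 37.6% and 44.5%, then 37.9% and 44.9%. Both stabilized libraries had the higher share in each of the 4 pituitary cases. The other WT library of the lobe still had to lack a peak, which favors a low share in the left-out library and does not bind the stabilized ones, so the order is partly fixed by the rule and is given as a description. With 2 libraries against 2, an exact two-sided permutation test cannot give a p below 0.333, so no test across libraries was made.

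The shares were also read at equal numbers of peaks, since libraries differed in theirs. In PP both stabilized libraries had more kept peaks (28926 and 38583) than the WT libraries (21050 and 20634). In AP, WT replicate 2 had more (45040) than either stabilized library (40071 and 42621). When the 20000 peaks of highest -log10 q were kept in every library, the left-out WT AP libraries had a peak at 7.80% and 5.14%, and the stabilized AP libraries at 17.9% and 13.5%, then 16.8% and 12.9%. The left-out WT PP libraries had 4.46% and 4.86%, and the stabilized PP libraries 31.1% and 26.6%, then 31.4% and 26.9%. The gap narrowed in both lobes, under the same limit. The same reading at WT cerebellum gave 67.4% and 48.2% in the left-out libraries and between 69.9% and 73.8% in the stabilized cerebellum libraries, with 70.2% and 55.2% against 64.6% to 70.0% at equal numbers. The mirror set, regions of AP alone, had the same order with all kept peaks. It gave 11.7% and 3.68% in a left-out WT cerebellum library and 16.15% to 24.2% in stabilized cerebellum, and at equal numbers 9.45% and 5.56% against 9.31% to 10.5%.

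**Figure D2:**
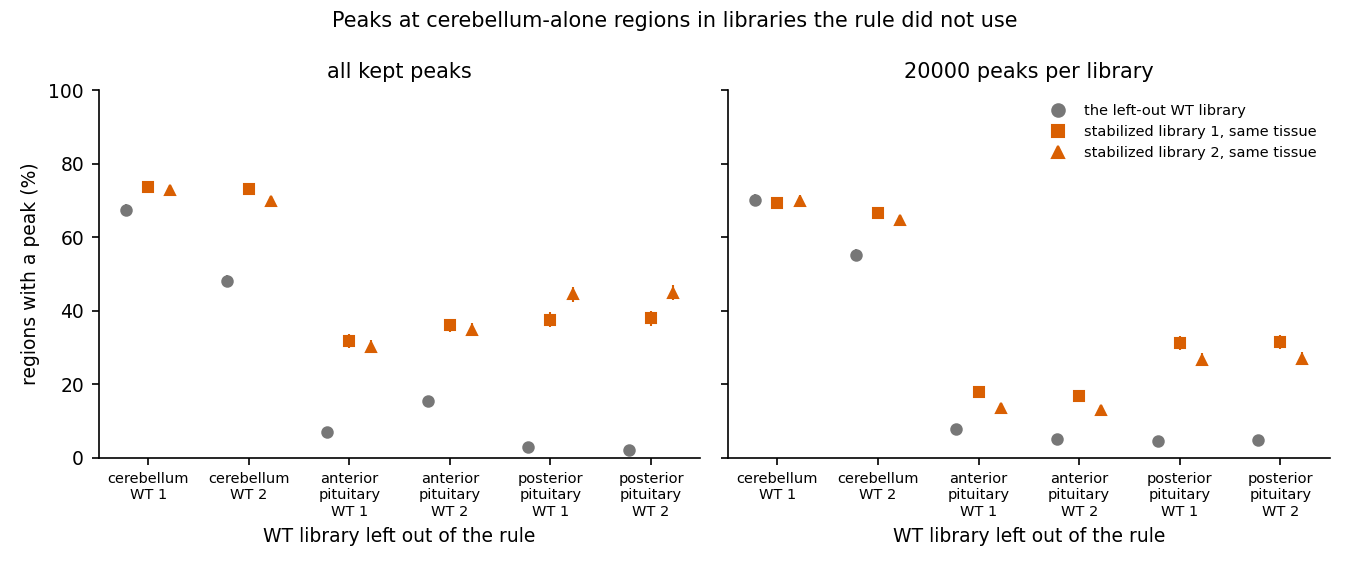
Share of cerebellum-alone regions, in percent, with a peak in a WT library that had been left out of the rule (circles) and in the 2 stabilized libraries of the same tissue (squares and triangles), with all kept peaks on the left and 20000 peaks per library on the right. Bars are Wilson 95% intervals, mostly smaller than the symbols; the first AP case has 31.6% and 30.2% in stabilized libraries and 7.01% in the left-out library, whose fellow WT library had to lack a peak at these regions.

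Regions with a TCF/LEF match had a peak in stabilized pituitary more often than regions without. In AP 36.5% of the regions with a match (32.8 to 40.4) and 19.4% of those without (17.5 to 21.4) had a peak in both libraries. In PP the shares were 46.1% (42.2 to 50.05) and 27.6% (25.4 to 29.8), and in the cerebellum 94.8% (92.7 to 96.3) and 87.7% (85.95 to 89.2). The intervals did not overlap in any of the 3 tissues. They cover counting error over regions that are not independent, and not the spread between libraries. Their overlap, here and below, is therefore a description and not a test. Of the 91 regions with more than 1 match, 53.85% (43.7 to 63.7) had a peak in both stabilized AP libraries and 61.5% (51.3 to 70.9) in both stabilized PP libraries. Regions with KLF letters had the opposite difference in AP, 12.7% (7.97 to 19.6) against 24.9% (23.0 to 26.8). Regions with ZIC letters were less often open in stabilized PP, 23.9% (19.8 to 28.55) against 34.5% (32.3 to 36.7). For ETS, SOX, FOX, AP-1, NFI, nuclear receptor, GATA, RUNX and TEAD letters the intervals with and without a match overlapped in both lobes. By place, promoters had a peak in both AP libraries at 25.0%, coding exons at 25%, other exons at 18.4%, introns at 25.6% and intergenic regions at 22.7%, and in both PP libraries at 26.8%, 25%, 24.1%, 34.1% and 33.0%, and the intervals of the 5 places overlapped in each lobe.

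Strength in the WT cerebellum moved with the fate as well. The regions were divided into 4 strength classes by the lower of their WT cerebellum fold enrichments, with medians of 3.11, 3.81, 4.88 and 7.39. From the weakest to the strongest class, 15.1%, 19.2%, 22.8% and 39.3% had a peak in both stabilized AP libraries, and 20.6%, 24%, 32.2% and 53.9% in both stabilized PP libraries. TCF/LEF matches were also more frequent in stronger classes, at 22.5%, 26.2%, 26.8% and 35.9%. Within each class the regions with a match had the higher share in both lobes, from 29.5% against 10.9% in the weakest class to 53.0% against 31.65% in the strongest in AP, and from 24.6% against 19.5% to 68.5% against 45.7% in PP. The intervals with and without a match overlapped for the weakest class in PP and for the second strongest in AP (22.04 to 36.6 against 16.9 to 24.85), and not in the other 6 pairs.

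**Figure D3:**
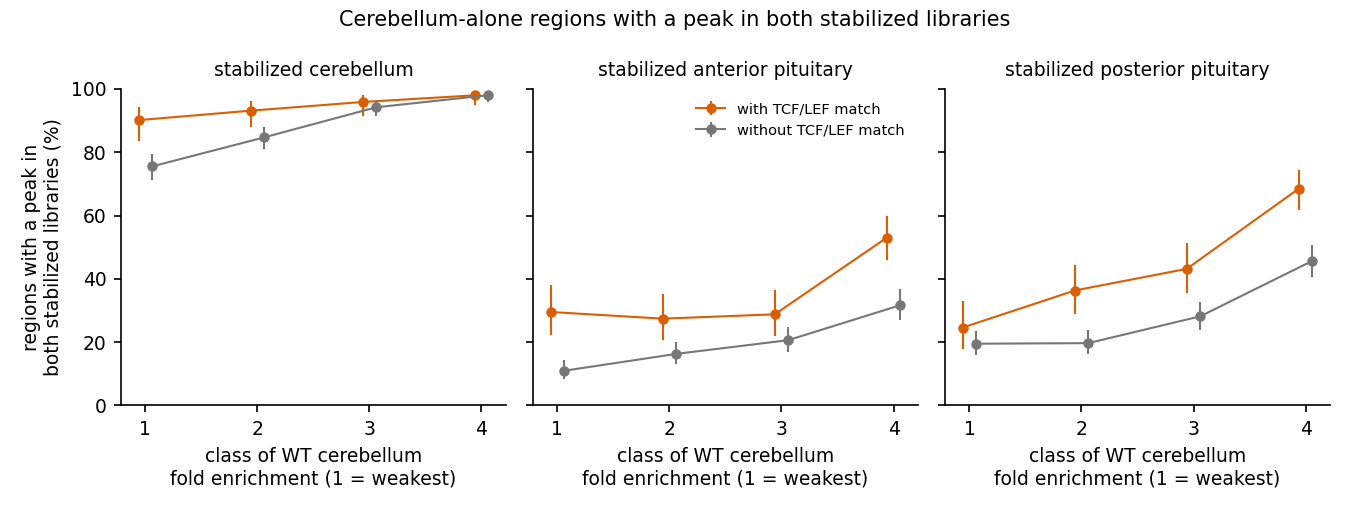
Share of cerebellum-alone regions, in percent, with a peak in both stabilized libraries of each tissue, by class of WT cerebellum fold enrichment (1 is the weakest), for regions with and without a TCF/LEF match. Points are shares and bars Wilson 95% intervals; in the strongest class the shares are 53.0% and 31.65% in AP and 68.5% and 45.7% in PP.

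The strength of peaks was read beside that in the WT cerebellum. The median fold enrichment over the regions with a peak was 5.595 and 4.63 in WT cerebellum, 7.97 and 7.43 in stabilized cerebellum, 5.24 and 5.20 in stabilized AP and 4.78 and 3.92 in stabilized PP. Of the 1974 regions with a peak in both stabilized cerebellum libraries, 1301 (65.9%) were above both WT cerebellum values and 94 (4.76%) below both. Over all WT cerebellum regions the same shares were 71.8% and 5.23%, close to those of the set. In stabilized AP 135 of 532 regions (25.4%) were above and 180 (33.8%) below both WT cerebellum values, where all WT cerebellum regions had 75.1% and 6.60%. In stabilized PP 80 of 721 (11.1%) were above and 354 (49.1%) below, where all had 38.4% and 15.3%. All WT cerebellum regions include those with peaks in WT pituitary, which the rule kept out of the set, so the choice of regions favors lower pituitary values and nothing is read from this difference. The log2 ratio between the WT cerebellum replicates had a median of 0.20 and an SD of 0.46 across the regions. Fold enrichment is relative to the local background of each library, and depth and background were not equalized between libraries.

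The region 88.0 kb upstream of Jag1, a Notch ligand gene, was among the strongest of the set by both WT cerebellum libraries (15.7 and 16.7), and its fold enrichment was 21.85 and 21.7 in stabilized cerebellum, 17.9 and 15.3 in stabilized AP and 14.5 and 12.4 in stabilized PP. An intronic region of Tnfrsf19, which encodes a TNF receptor family member, held 3 TCF/LEF matches (chr14:61012334-61012972). It gave 14.2 and 14.7 in WT cerebellum, 14.9 and 13.8 in stabilized AP, and 11.2 and 10.6 in stabilized PP. At both places every stabilized pituitary library had a peak. The strongest region by the lower WT value lay in an intron of Bche, which encodes butyrylcholinesterase (chr3:73673129-73673914), and had no TCF/LEF match. There the values fell off between tissues, from 16.6 and 18.9 in WT cerebellum to 7.56 and 5.20 in stabilized AP and 4.56 and 5.09 in stabilized PP. The promoter region of A930018P22Rik (chr2:104121861-104122285) went the other way, with 3.404 and 2.64 in WT cerebellum, no stabilized cerebellum peak, 13.6 and 17.3 in stabilized AP and 13.6 and 11.4 in stabilized PP. The strongest region without a peak in any stabilized library lay 33.0 kb upstream of Ust, with 8.08 and 8.90 in WT cerebellum.

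Members near the threshold of the rule were few. In the WT pituitary libraries, 9 and 14 members in AP and 5 and 6 in PP had a listed peak that fell under the fold enrichment or q threshold. A single pituitary library kept out a further 166 and 398 regions (AP) and 68 and 47 regions (PP), with fold enrichments there from 2.02 to 17.0. Among members, the lower WT cerebellum fold enrichment ranged from 2.02 to 16.6 with a median of 4.28.

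RNA was then read for the genes within 100 kb of a region, which numbered 8837, of which 4261 were protein-coding. A region had a median of 5 genes in this window, 1982 regions had at least 1 protein-coding gene and 19 had no gene, so that most regions cannot be assigned to 1 gene. Calls needed at least a 2-fold change with an adjusted p below 0.05 in edgeR's quasi-likelihood test (Benjamini-Hochberg over all genes tested). All comparisons of pituitary ECs below share the WT pituitary libraries. The tests measure the spread between these samples, and in bulk RNA fewer cells of a type and less RNA per cell cannot be told apart.

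Genes near the regions were more often higher in WT cerebellum ECs than genes in general. Of 4001 tested genes near a region, 365 (9.12%) were higher in WT cerebellum than in WT AP ECs, against 3% of the 17900 genes tested, and 74 (1.85%) were lower, against 2.25%. Against WT PP ECs 289 (7.22%) were higher and 86 (2.15%) lower, where the shares of all genes were 2.3% and 2.09%. In the same tissue 442 of 4548 genes near a region (9.72%) were higher in GFP-positive than GFP-negative cells, against 4.46% of all genes, and 255 (5.61%) were lower, against 6.89%. The count of lower genes fell to 112 (2.25%, against 2.94% of all genes) without WT cerebellum GFP-positive replicate 1 and to 164 (3.29%, against 4.06%) without replicate 2. In RNA bound to endothelial ribosomes, 662 of 3743 genes near a region (17.7%) were higher in WT cortex than WT choroid plexus and 520 (13.9%) lower, close to the 15.8% and 13.9% of all genes tested. Between stabilized and WT choroid plexus 71 (1.90%) rose and 6 (0.160%) fell, against 0.656% and 0.197%. Between stabilized and WT cortex 214 (5.72%) rose and 75 (2.004%) fell, against 3.64% and 2.67%. Near the regions of AP alone 2.965% of genes were higher in WT cerebellum than WT AP ECs, and near those of both lobes 2.73%.

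In stabilized pituitary ECs the genes near the regions were again over the level of all genes among those that rose. In AP 48 of the 4001 (1.2%) rose and none fell, against 0.441% and 0.0168% of all genes tested. In PP 130 (3.25%) rose and 27 (0.675%) fell, against 1.26% and 0.559%. With library sizes in place of TMM, 114 (2.85%) rose and 75 (1.875%) fell in PP, against 1.095% and 1.37% of all genes. The gene Gm42418 alone held 4.76% and 11.03% of counts in WT PP and 17.45% and 15.91% in stabilized PP. The part of this shift in the PP counts was not tested. Near the regions of AP alone 0.344% rose in stabilized AP and 1.14% in stabilized PP. In the stabilized cerebellum 5 (0.125%) rose and 22 (0.550%) fell, against 0.0670% and 0.581% of all genes. These counts depend on single libraries, and the shares of all genes moved with them. Without stabilized AP replicate 2, the library with the contradictory tissue tag, 84 genes near the regions rose and 3 fell in AP (1.92% and 0.0685%, against 0.831% and 0.164% of all genes). Without stabilized AP replicate 1, 119 rose and 10 fell (2.72% and 0.229%, against 1.08% and 0.195%). Without WT PP replicate 1, 283 rose and 105 fell in PP (6.41% and 2.38%, against 3.82% and 1.84%). The count that fell in PP was 12 without WT PP replicate 2, 3 without stabilized PP replicate 1 (0.0679%, against 0.0991% of all genes) and 12 without stabilized PP replicate 2, while 113 to 123 rose. The counts of 12 and of those that rose are given without the shares of all genes, so nothing is read from their size. Without stabilized cerebellum replicate 1, 12 rose and 96 fell in the cerebellum (0.272% and 2.17%), close to the 0.256% and 2.29% of all genes. Counts there also moved by more than 1.5 times without WT cerebellum replicate 1 (5 rose and 46 fell, 1.045% lower against 1.04% of all genes) and without stabilized cerebellum replicate 2 (8 and 35, 0.786% lower against 0.920%).

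The share of genes that rose was higher where more regions lay nearby. Among genes with no region, 1 region, 2 to 3 regions and 4 or more, 1.24%, 6.12%, 12.9% and 30.6% were higher in WT cerebellum than WT AP ECs. In stabilized AP the shares that rose were 0.223%, 0.720%, 1.775% and 4.785%, and in stabilized PP 0.691%, 2.34%, 4.34% and 10.05%. The last class held 209 genes, of which 10 rose in AP and 21 in PP. In stabilized cerebellum the shares were 0.0504%, 0.144%, 0.0986% and 0%. Protein-coding genes were also grouped by the distance from their closest start to the closest summit of the set. Those under 5 kb rose in 5.80% of cases in stabilized AP and 14.7% in stabilized PP, those at 20 to 50 kb in 1.38% and 3.23%, and those at 100 to 200 kb in 0.143% and 0.620%. Beyond 200 kb the shares were 0.305% and 0.821%, so the fall with distance stopped there. Longer genes can collect more regions, and gene length was not taken into account.

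**Figure D4:**
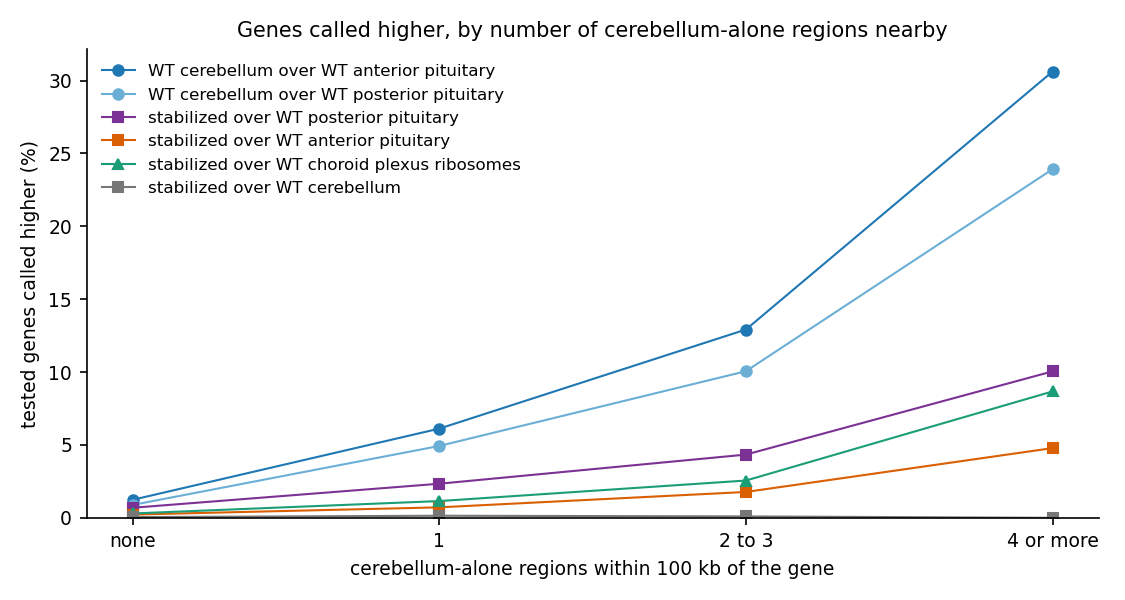
Share of tested genes called higher, in percent, in 6 comparisons, by the number of cerebellum-alone regions within 100 kb of the gene body. Each point is a class of genes; with 4 or more regions 30.6% of genes were higher in WT cerebellum than WT AP ECs, 10.05% rose in stabilized PP and 4.785% in stabilized AP, and 0% rose in stabilized cerebellum.

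The fate of the regions in stabilized pituitary moved with the RNA of the genes. In AP 0.223% of the 13899 genes with no region rose, 0.679% of the 2358 genes whose regions had no stabilized AP peak, 0.741% of the 405 with a peak in 1 library only, and 2.34% (29) of the 1238 with a region open in both libraries. Where at least 2 regions were open in both, 5.47% (11 genes) rose. In PP the shares were 0.691%, 1.75% of 1717, 2.56% of 664, 5.12% (83) of 1620, and 9.21% (29 of 315) with at least 2 such regions. Genes whose regions had no stabilized peak thus lay between genes without a region and genes with an open one in both lobes.

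BBB transporters, the longest of the gene lists, had the most regions in total. Of 27 transporter and receptor genes of brain capillaries, 23 had at least 1 region, 71 regions in all, of which 25 held a TCF/LEF match. Both stabilized cerebellum libraries had a peak at 68 of them, both AP libraries at 24 (33.8%) and both PP libraries at 30 (42.25%), compared with 24.2% and 32.7% of all members. In WT cerebellum ECs 25 of the 27 were higher than in WT AP ECs and 25 than in WT PP ECs, against 3% and 2.3% of all genes. In stabilized AP 8 rose with a median log2 difference over the list of 1.99, and in stabilized PP 18 rose with a median of 3.12, where the medians over all genes were 0.06 and 0.01 and the shares that rose 0.441% and 1.26%. None of the 27 passed the test in stabilized cerebellum.

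Slc2a1 had 11 regions within 100 kb, of which both stabilized AP libraries had a peak at 3 and both PP libraries at 7. Its RNA was 3031 and 4439 CPM in the WT cerebellum, and 2730 and 3293 once beta-catenin was stabilized. In AP it went from 34.4 and 27.4 in WT to 81.9 and 145.0 in stabilized ECs (log2 difference 1.88, SE 0.33, adjusted p = 0.0285). In PP it went from 25.5 and 31.0 to 1423 and 1691 (5.78, SE 0.40, adjusted p = 1.61e-05). WT and stabilized libraries did not overlap in either lobe, and stabilized PP came nearer to the cerebellum than stabilized AP. A region of Slc2a1 with a TCF/LEF match, at chr4:119043892-119044870, gave 6.47 and 8.165 fold enrichment in WT cerebellum, 6.67 and 7.28 in stabilized AP and 7.91 and 7.48 in stabilized PP. Another at chr4:119021630-119022406 gave 12.4 and 11.05, then 11.5 and 7.795, then 9.05 and 7.60.

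Slco1a4 had 7 regions, of which 1 was open in both stabilized AP and 2 in both stabilized PP libraries. Its RNA was 2223 and 2529 CPM in WT cerebellum, and rose from 5.89 and 4.21 to 51.3 and 161.2 in AP (4.39, SE 0.49, adjusted p = 0.000931) and from 39.5 and 57.7 to 672.9 and 699.2 in PP (3.82, SE 0.47, adjusted p = 0.0012). Mfsd2a, the carrier of lysolipids with docosahexaenoic acid, had 3 regions, 2 of them open in both libraries of each stabilized lobe. It stood at 0 and 0.0314 CPM in WT AP and 14.5 and 20.7 in stabilized AP (adjusted p = 2.24e-05), and at 0 and 0.0608 in WT PP and 182.2 and 173.4 in stabilized PP (adjusted p = 2.61e-06). No fold is given for it, since the WT groups held at most 3 reads. Slc39a10, a zinc importer, rose by 2.09 and 3.12 on the log2 scale in AP and PP (SE 0.29 and 0.31, adjusted p = 0.00583 and 0.000194), and Abcb1a, the P-glycoprotein efflux pump, by 2.08 in each (SE 0.35 in each, adjusted p = 0.0211 and 0.0116). Slc7a5, a large neutral amino acid transporter, had both of its regions open in both libraries of each lobe. It rose in PP from 15.7 and 0.243 to 523.5 and 588.7 CPM (6.10, SE 1.13, adjusted p = 0.0191).

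Other transporter genes were not called in either stabilized lobe. Slc16a1, which carries lactate and ketone bodies, had 3 regions open in both stabilized cerebellum libraries and none in both libraries of either lobe, and stood at 1128 and 2361 CPM in WT cerebellum. It was at 60.04 and 93.1 CPM in WT AP and 98.0 and 89.9 in stabilized AP, and at 19.2 and 75.3 in WT PP and 38.7 and 24.1 in stabilized PP, and did not pass the test in either lobe. Lrp8, an apolipoprotein E receptor gene, had 6 regions, all open in stabilized cerebellum and none in both libraries of a stabilized lobe. It was at 188.2 and 411.9 CPM in WT cerebellum, at 1.41 and 0 in WT AP and 5.20 and 1.66 in stabilized AP, and at 2.62 and 0.0608 in WT PP and 11.5 and 9.62 in stabilized PP (2.27, SE 1.18, adjusted p = 0.698 in AP and 2.87, SE 1.16, adjusted p = 0.301 in PP). In each lobe both stabilized libraries lay above both WT libraries. Its region at chr4:107783462-107784162 had fold enrichments of 10.8 and 7.62 (WT) and 12.6 and 11.6 (stabilized) in cerebellum.

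Tight junction genes had fewer regions and fewer calls. Of 11 genes, 8 had a region, 22 in all, with a peak in both libraries at 22 in stabilized cerebellum, 7 in AP and 10 in PP. Against 3% and 2.3% of all genes, 7 of the 11 were higher in WT cerebellum than in WT AP and 7 than in WT PP, where 1 was lower. None passed the test in stabilized AP (median 0.45, against 0.06 over all genes) and 3 rose in stabilized PP (median 0.61, against 0.01), where 0.441% and 1.26% of all genes rose. Ocln had 6 regions, 2 of them open in AP and 3 in PP. It was at 406.8 and 511.4 CPM in WT cerebellum and rose in PP from 5.77 and 0.243 to 148.3 and 152.6 (5.58, SE 0.84, adjusted p = 0.00514), while AP went from 4.78 and 4.84 to 13.8 and 19.0 (1.77, adjusted p = 0.640). Cldn5, which encodes the claudin of the barrier, had 2 regions with no peak in both libraries of either lobe, and rose in PP from 41.3 and 16.1 to 223.6 and 269.4 (3.10, SE 0.48, adjusted p = 0.00594). Tjp1, the scaffold protein ZO-1, had 5 regions, 3 of them open in each lobe, and did not pass the test in AP (556.9 and 480.2, then 569.1 and 739.3) or PP (430.2 and 482.4, then 651.5 and 743.0).

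Wnt feedback and target genes had the largest share of regions open in stabilized pituitary among the lists with over 20 regions. Of 12 genes, 8 had a region. Of their 32 regions 17 held a TCF/LEF match, and both libraries had a peak at 31 in stabilized cerebellum, 20 in AP and 20 in PP (62.5% in each lobe). In stabilized AP 4 of the 12 genes rose (median 3.66), and in stabilized PP 6 rose (median 5.08), against 0.441% and 1.26% of all genes. The list holds known targets of the activated pathway, so its direction is not independent evidence.

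Nkd1 had 7 regions, 2 open in AP and 4 in PP. It stood at 0.0601 and 0 CPM in WT AP and 23.6 and 36.6 in stabilized AP (adjusted p = 0.000862, no fold given), and rose in PP from 1.75 and 0.0608 to 167.7 and 210.6 (7.56, SE 0.84, adjusted p = 0.000542). Cerebellar Nkd1 was at 101.1 and 110.5 (WT) and 766.6 and 573.0 in stabilized ECs, which do not overlap but did not pass the test (2.66, adjusted p = 0.118). Axin2 had 5 regions, 4 open in AP and 3 in PP. It rose in PP from 2.06 and 1.40 to 78.3 and 108.4 (5.73, SE 1.16, adjusted p = 0.029), and in AP the libraries were at 9.41 and 0.157 in WT and 25.8 and 57.6 in stabilized ECs (3.12, adjusted p = 0.404). An intronic Axin2 region with a TCF/LEF match, chr11:108936205-108936848, gave 6.195 and 5.83 in WT cerebellum, 11.4 and 11.2 in stabilized cerebellum, 9.63 and 10.6 in stabilized AP and 7.64 and 7.03 in stabilized PP.

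Lef1, which encodes a DNA-binding partner of beta-catenin, had 4 regions, all open in stabilized AP and 3 in PP. Its RNA was at 397.5 and 327.1 CPM in WT cerebellum, 0 and 5.25 in WT AP, 33.8 and 62.6 in stabilized AP (4.20, adjusted p = 0.276), 1.03 and 5.84 in WT PP and 162.3 and 152.5 in stabilized PP (5.56, adjusted p = 0.0528). Neither passed the test with TMM scaling, although the groups did not overlap, and the PP difference passed with library sizes alone (5.39, adjusted p = 0.0468). Its region chr3:131085724-131086418 gave 12.0 and 9.10 in WT cerebellum, 11.8 and 12.0 in stabilized AP and 7.17 and 6.83 in stabilized PP. Notum, a secreted enzyme that inactivates Wnt proteins, was listed at 0 in all 4 WT pituitary libraries. It reached 2.42 and 5.22 CPM in stabilized AP (adjusted p = 0.00272) and 29.0 and 45.6 in stabilized PP (adjusted p = 0.000258), beside 85.0 and 47.9 in WT cerebellum. Apcdd1, a Wnt inhibitor at the membrane, rose in PP from 42.1 and 45.2 to 506.3 and 626.6 CPM (3.70, SE 0.32, adjusted p = 7.06e-05). Tnfrsf19 was listed at 0 in all 4 WT pituitary libraries, and was at 19.7 and 61.9 CPM in stabilized AP and 288.1 and 307.2 in stabilized PP.

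The lists of receptor and transcription factor genes had few regions each, and are set beside the 24.2% and 32.7% of all members open in AP and PP. The 10 Wnt receptor and effector genes had 14 regions, 13 open in stabilized cerebellum, 2 in AP and 2 in PP (14.3% in each lobe), and 2 of the genes rose in AP and 1 in PP (medians 0.18 and -0.19), against 0.441% and 1.26% of all genes. Reck, a coreceptor for Wnt7 proteins, rose in both lobes (2.05, SE 0.29, adjusted p = 0.00583 in AP, and 2.18, SE 0.29, adjusted p = 0.00214 in PP), while its partner Adgra2, with 5 regions of which none was open in both libraries of either lobe, did not pass the test in either. Fzd6, a Frizzled receptor gene, rose in AP (2.31, SE 0.43, adjusted p = 0.038) and was at -0.31 in PP (adjusted p = 0.802). The difference between the lobes did not pass the test (adjusted p = 0.165). Ctnnb1 itself did not pass the test in any tissue (0.15 in AP, 0.18 in PP, -0.28 in cerebellum), and RNA per gene cannot show the loss of 1 exon.

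The 11 FOX, ZIC and SOX genes had 18 regions, open in stabilized cerebellum at 18, in AP at 1 (5.56%) and in PP at 3 (16.7%). In AP 1 of the genes rose and in PP 2, where 0.441% and 1.26% of all genes rose, with a list median of 0.34 in each lobe. Foxq1 was at 207.0 and 178.7 CPM in WT cerebellum, 0 in both WT AP libraries, 1.42 and 0.807 in stabilized AP (adjusted p = 0.0372, no fold given), and rose in PP from 0 and 0.487 to 14.2 and 19.2 (6.43, SE 0.84, adjusted p = 0.00264). The 7 ETS genes had 7 regions, open at 7 in stabilized cerebellum, 2 in AP (28.6%) and 4 in PP (57.1%), and none passed the test in either lobe (medians 0.08 and -0.01). Ets1 was at 482.2 and 721.1 CPM in WT cerebellum and between 431.1 and 605.2 in all pituitary libraries.

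Genes of permeable capillaries had few regions. The 13 fenestral and caveolar genes had 5 regions, and the 11 arterial and Notch genes 4. In WT cerebellum 5 of the 13 were lower than in WT AP and 7 lower than in WT PP, and 3 were higher than in WT AP, where 2.25% and 2.09% of all genes were lower and 3% higher. Endothelial markers moved there too, with 1 of 10 lower than in WT AP (median -0.41) and 5 of 10 lower than in WT PP (median -0.87), and their part in these counts was not tested. Of the 13, 1 rose in stabilized AP and 1 fell in stabilized PP, against 0.441% and 0.559% of all genes. With TMM none of those with a region passed the test in the higher direction. With library sizes alone Cav1 was called higher in AP (1.45, adjusted p = 0.0389) and Flt1 lower in PP (-1.38, adjusted p = 0.0253). Both have a region, and with TMM neither was called (adjusted p = 0.0601 and 0.0759). The median of the 13 was -0.10 in stabilized AP and -0.78 in stabilized PP. In stabilized PP 2 of the 10 endothelial markers were lower as well, with a median over that list of -0.57 against 0.01 over all genes, and their sum went from 12796 and 13588 to 6417 and 7229 CPM. The part of this shift in the values below was not tested. Kdr, the main receptor for VEGF and one of those endothelial markers, had 1 region, open in neither lobe, and fell in PP from 4154 and 5269 CPM to 1152 and 1383 (-1.89, SE 0.32, adjusted p = 0.0118), while AP went from 3761 and 3704 to 3861 and 2823 (-0.16, adjusted p = 1). Efnb2, an arterial ephrin, had 1 region and fell in PP from 251.3 and 286.9 to 108.9 and 95.7 (-1.40, SE 0.26, adjusted p = 0.0205), and was at 213.8 and 290.1 in WT and 262.8 and 289.0 in stabilized AP (0.13, adjusted p = 1). Jag1, with 2 regions open in both libraries of both lobes, did not pass the test in AP (27.0 and 55.7, then 64.9 and 69.3) or PP (55.8 and 90.6, then 71.1 and 103.8). Plvap, the protein of fenestral diaphragms, had no region, and stood at 2023 and 2463 CPM in WT AP and 2335 and 2361 in stabilized AP (0.07, adjusted p = 1). In PP it was at 2106 and 2215 in WT and 1585 and 1761 in stabilized ECs, which do not overlap but did not pass the test (-0.37, SE 1.39, adjusted p = 0.973).

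Genes with many regions and no place in a list varied in the same way. Gpcpd1 had 5 regions, 4 of them open in each lobe, and rose in AP from 19.3 and 26.8 to 54.1 and 78.1 CPM (1.52, SE 0.29, adjusted p = 0.0454) and in PP from 17.1 and 17.9 to 195.2 and 203.8 (3.51, SE 0.32, adjusted p = 8.13e-05). The AP call was lost when library sizes alone were used (adjusted p = 0.0607). Ptn had 6 regions, 1 open in AP and 3 in PP, and rose from 8.71 and 2.08 to 70.2 and 73.5 in AP (3.73, SE 0.66, adjusted p = 0.0285) and from 5.21 and 1.16 to 382.7 and 343.3 in PP (6.79, SE 0.77, adjusted p = 0.000558). Fry had 12 regions, all open in stabilized cerebellum, none in AP and 2 in PP. Its RNA was at 356.8 and 504.8 CPM in WT cerebellum, 54.4 and 47.3 in WT AP, 97.1 and 88.3 in stabilized AP (0.87, adjusted p = 0.640), 79.0 and 171.6 in WT PP and 106.6 and 164.0 in stabilized PP (0.11, adjusted p = 0.956). Bsg, the chaperone of monocarboxylate transporters, had 5 regions, none open in both AP libraries and 2 in PP, and rose in PP from 145.5 and 105.9 to 397.4 and 296.0 (1.46, SE 0.30, adjusted p = 0.0306), a call that library sizes alone did not give (1.21, adjusted p = 0.0582). In AP Bsg was at 134.5 and 104.1 in WT and 121.9 and 165.2 in stabilized ECs (0.27, adjusted p = 0.940). Pcca, Utrn and Alas1 had 5 to 7 regions and passed the test in neither lobe.

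**Figure D5:**
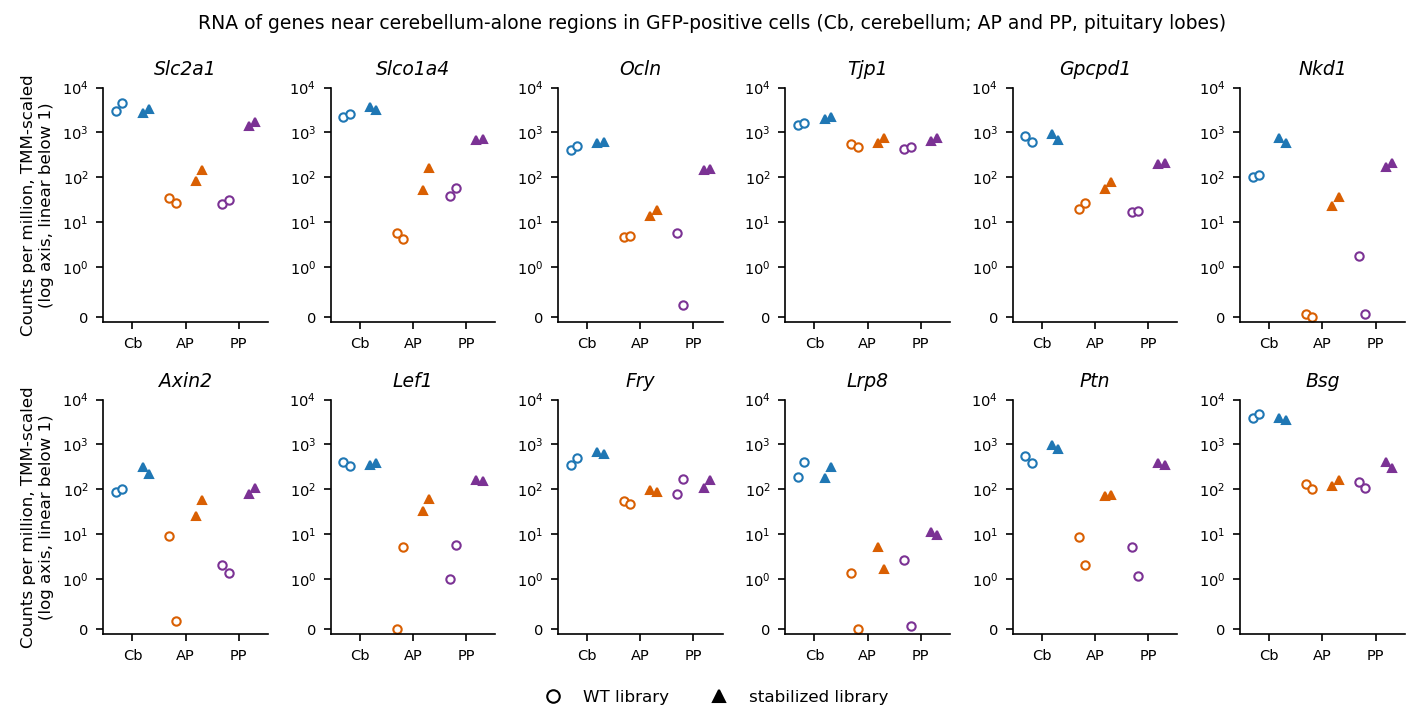
RNA of 12 genes near cerebellum-alone regions in each GFP-positive library, in TMM-scaled CPM on a log axis that is linear below 1, for cerebellum (Cb), AP and PP. Circles are WT and triangles stabilized libraries, 2 of each; Slc2a1 in PP goes from 25.5 and 31.0 to 1423 and 1691, below the 3031 and 4439 of WT cerebellum, and Fry in PP is at 79.0 and 171.6 in WT and 106.6 and 164.0 in stabilized ECs.

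Markers of other cells moved with some of these comparisons. The 8 microglia markers summed to 50.4 and 29.7 CPM in WT AP and 269.3 and 574.8 in stabilized AP, and to 64.8 and 58.3 in WT PP and 734.3 and 549.3 in stabilized PP. In AP 1 of the 8 was called higher and in PP 3, against 0.441% and 1.26% of all genes, and Tmem119 was at 0 in both WT AP libraries. The 8 mural cell markers summed to 3311 and 3055 CPM in WT cerebellum, 803 and 914 in WT AP and 572 and 550 in WT PP, and 3 of them (Acta2, Tagln and Myh11) had a region. In stabilized ECs they summed to 2305 and 2179 CPM in cerebellum, 1094 and 1002 in AP and 381 and 300.4 in PP. In AP 1 was called higher (median over the list 1.77) and in PP 1 lower (median -0.48). Of all genes 0.441% were higher in AP and 0.559% lower in PP. The 10 endocrine markers summed to 5741 and 3269 CPM in WT AP, 3214 and 4055 in stabilized AP, 2338 and 433.7 in WT PP and 322 and 755.4 in stabilized PP. In GFP-positive libraries cerebellar neuron markers summed to 29.2 to 93.0 CPM and astrocyte markers to 146 to 566, against 1250 and 1245 and 23428 and 11521 in GFP-negative cells of WT cerebellum, and 1 of 10 and 2 of 8 had a region. Oligodendrocyte markers summed to 22.1 to 161.1 CPM in GFP-positive libraries and 3985 and 17014 in those GFP-negative cells, and 1 of 8 had a region. Erythrocyte genes, none with a region, differed between the WT cerebellum replicates, at 31812 and 4250 CPM. The part of these cells in the results was not tested.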

How the data were processed

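The members and gene lists were chosen with earlier results of these data known. For each ATAC-seq library the authors deposited MACS2 2.1.1.20160309 peaks, called in that library alone on reads aligned with Bowtie2 2.3.2 to mm10, with a fold enrichment (a ratio to local background) and a -log10 q. For each RNA library the authors deposited Salmon 0.10.2 estimated counts and TPM per transcript. Versions are from the submitters' processing notes.

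Overlapping entries of a library were merged, and peaks of any library that overlapped formed regions. Places and genes came from GENCODE M21 and sequences from the GRCm38 RefSeq assembly, and GC content, CpG and motifs were read in 201 bases around the strongest summit with pysam 0.24.0. Overlaps were checked against bedtools 2.31.1. Shares have Wilson 95% intervals.

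Estimated counts were summed to genes, rounded and fitted with edgeR 4.0.16 in R 4.3.3 (TMM, filterByExpr, quasi-likelihood test, 1 coefficient per group, Benjamini-Hochberg adjustment), separately for the 12 GFP-positive, 24 sorted and 8 bound libraries. Between 0.124% and 0.395% of reads fell on transcripts without a match in the annotation. TMM-scaled CPM are given in place of TPM, because in stabilized PP the 10 most abundant genes held 62.0% and 63.5% of TPM (31.0% and 48.1% in WT PP). TPM served only to order named genes and to compare scalings. The test was checked on simulated data, where it found most of the larger changes when replicates varied little and few of them at the spread of these libraries.

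Named genes were the 15 protein-coding genes with the most regions among those higher in WT cerebellum than in both lobes, and the 4 members of each list with the most regions. Named regions were the 10 strongest in WT cerebellum, the 10 strongest in stabilized pituitary and the 5 strongest with no stabilized peak. Abcb1a, Apcdd1, Cldn5, Foxq1, Mfsd2a, Plvap, Reck, Slc16a1, Slc39a10, Slc7a5 and Tnfrsf19 are list or marker genes outside this rule, chosen after their values were seen. No fold is given for a group with 3 or fewer reads. Input RiboTag libraries and GFP-negative pituitary libraries were not analysed here beyond the fit. Some genes are not reported here.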

Additional observations from a re-analysis of the deposited data

Results flagged for a closer look

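The results below stand out because the change from WT to stabilized ECs differed between tissues, tested as an interaction in the edgeR quasi-likelihood fit of the 12 GFP-positive libraries with Benjamini-Hochberg adjustment over 17900 genes. The posterior pituitary comparisons share the same libraries, so they are not independent of each other. The paper describes both lobes as separated from the same pituitaries, and AP and PP were fitted as independent. The genes named below were among those chosen as higher in WT cerebellum than in both WT lobes. The same WT libraries enter the interaction, so this choice favors a larger change in a lobe than in cerebellum.

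Slc2a1 rose more in PP than in AP, by 3.91 on the log2 scale (SE 0.47, adjusted p = 0.00492), and more in PP than in cerebellum, by 6.09 (SE 0.49, adjusted p = 6.32e-05). Slco1a4 rose more in AP than in cerebellum, by 3.85 (SE 0.62, adjusted p = 0.0154), and more in PP than in cerebellum, by 3.27 (SE 0.61, adjusted p = 0.0282). The PP and AP responses of Slco1a4 differed by -0.57 (adjusted p = 0.876). For PP against cerebellum the difference was 4.90 for Nkd1 (SE 0.95, adjusted p = 0.0341), 5.86 for Ptn (SE 0.91, adjusted p = 0.00968), 5.22 for Ocln (SE 1.04, adjusted p = 0.0375) and 3.39 for Gpcpd1 (SE 0.41, adjusted p = 0.00168). In each of these 6 genes both stabilized libraries of the pituitary lobe lay above both WT libraries of that lobe.

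Over all genes tested, 93 differed between the AP and cerebellum responses, 39 of them near a region and all 39 with the larger value in AP. Between PP and cerebellum 166 differed, 79 of them near a region, of which 76 had the larger value in PP. Between PP and AP 23 differed, 15 of them near a region, of which 7 had the larger value in PP. Near genes made up 4001 of the 17900 tested. Directions are given for near genes only, so they cannot be set against those of all genes that differed.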

How the results depend on the processing

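Of 159 alternatives, 108 left a result within the spread allowed for it and 51 did not. Equal numbers of peaks and library-size scaling were added after seeing the data. With each library left out in turn, the number of regions ranged from 2249 to 4622 (3350 without WT cerebellum replicate 1, 4622 without replicate 2). The same ranges were 15.3% to 30.5% of regions open in both stabilized AP libraries, 19.5% to 44.6% in PP and 67.4% to 92.01% in cerebellum, 94.08% to 94.98% over 1 kb from a start, and 21.7% to 27.4% with a TCF/LEF match. Equal numbers of peaks gave 8.63% in AP, 19.96% in PP, 81.4% in cerebellum, 92.7% over 1 kb and 26.0% with a match. Stricter peaks (fold enrichment over 4, -log10 q over 5) gave 26.9% in AP and 27.1% in PP. With 5 kb in place of 1 kb, 83.8% lay beyond a start. A window of 50 bases to either side of the summit gave a TCF/LEF match in 16.4%, and the whole region in 43.7%.

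Genes near the regions called in either direction numbered 439 (WT cerebellum against WT AP), 375 (against WT PP), 48 (stabilized AP), 157 (stabilized PP), 27 (stabilized cerebellum), 1182 (WT cortex against choroid plexus ribosomes) and 697 (GFP-positive against GFP-negative). DESeq2 gave 672, 641, 167, 382 and 167 for the first 5. Without a filter on low counts the last 4 of these were 563, 176, 342 and 130, and with only the groups compared 181, 26, 45 and 2. The closest protein-coding start in place of 100 kb gave 11 for stabilized cerebellum, 515 for the ribosomes and 379 for the sorted cells. Leaving out a replicate gave 345 to 411, 316 to 518, 58 to 129, 116 to 388, 36 to 108, 923 to 1084 and 486 to 590 in that order. Same-numbered replicates did not deviate together in the comparisons read (correlations from -0.0378 to 0.0908), and a replicate block gave 463, 392, 64, 183, 26, 1092 and 669 calls. AP was not set against PP in this way, although the paper describes both lobes as separated from the same pituitaries. The share of near genes that were higher exceeded the share of all genes in 11 of 11 alternatives for each comparison but stabilized cerebellum, where it did in 10. For lower genes the near share exceeded that of all genes in 9 of 11 for stabilized PP. It did so in 7 of 11 for WT cerebellum against WT PP, and in 0 to 4 for the other comparisons. Library sizes in place of TMM moved the median of all genes from 0.01 to -0.12 in stabilized PP, and gene levels there are relative to that shift. The causes of these changes were not tested. With 2 libraries per group, a gene not called is not shown to be unchanged, and a region without a peak may lie under the depth of its library.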

Other observations

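Choroid plexus ECs, another fenestrated bed, gave a further reading of the same genes through RNA bound to tagged endothelial ribosomes. Of the genes with no region, 1, 2 to 3 and 4 or more regions within 100 kb, 0.300%, 1.15%, 2.56% and 8.67% (17 of 196) rose from WT to stabilized choroid plexus. Of the 27 BBB transporter genes 14 rose, with a list median of 2.17 on the log2 scale, as did 4 of the 10 tested Wnt feedback genes, against 0.656% of all genes and a median of -0.09 over them. Slc2a1 went from 112 and 169 CPM to 1049 and 1147 (2.97, SE 0.47, adjusted p = 0.0251), beside 1832 and 630.3 in WT cortex. Atp10a, a lipid flippase, went from 12.0 and 8.43 to 252.2 and 233.3 (4.57, SE 0.42, adjusted p = 0.00263), and Nkd1 from 0.965 and 3.45 to 174.1 and 177.6 (6.31, SE 0.55, adjusted p = 0.00194).

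Genes that did not pass the test in either pituitary lobe did so here in some cases. Fry rose from 63.4 and 65.6 to 171.8 and 179.5 CPM (1.44, SE 0.21, adjusted p = 0.0156), Tjp1 from 208.1 and 208.6 to 562.1 and 631.6 (1.52, SE 0.24, adjusted p = 0.0251) and Ets1 from 57.2 and 51.9 to 171.1 and 170.4 (1.65, SE 0.30, adjusted p = 0.0404). Endothelial genes in general had higher fitted values in this comparison, with list medians of 0.68 for the 10 endothelial markers, 0.93 for the 7 ETS genes and 0.62 for the 11 arterial genes against -0.09 over all genes, and 2 of the ETS genes and none of the markers or arterial genes passed the test. Whether these differences differ from those in the pituitary was not tested, since the libraries were fitted separately. Lrp8 stood at 122.0 and 131.2 CPM in WT and 103.7 and 121.7 in stabilized choroid plexus, beside 108.6 and 78.1 in WT cortex.

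In cortex, a barrier bed, Fry rose from 207.2 and 190.8 CPM in WT to 536.5 and 526.2 in stabilized ECs (1.42, SE 0.21, adjusted p = 0.00658), and Alas1, the first enzyme of heme synthesis, from 88.5 and 38.5 to 292.8 and 285.5 (2.19, SE 0.36, adjusted p = 0.00955). Bsg rose there from 1378 and 792.7 to 2991 and 2859 (1.43, SE 0.31, adjusted p = 0.0304) and Lrp8 to 228.5 and 232.2 (1.30, SE 0.24, adjusted p = 0.0153). In the same comparison 3 of the 10 endothelial markers rose, against 3.64% of all genes, with a list median of 0.94 against 0.00 over all genes, while the medians of neuron and astrocyte markers were -1.14 and -0.98. Markers of other cells were also read in bound RNA, between WT cortex and WT choroid plexus. Higher in cortex were 7 of 8 astrocyte, 8 of 8 oligodendrocyte, 8 of 8 microglia and 6 of 7 tested neuron markers, against 15.8% of all genes. Of 8 mural cell markers none was higher and 2 were lower. The part of these cells in these values was not tested.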
